A study of Mus musculus with 24 samples.

Results

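The genes described here are 6 members of the p53 network, chosen by name from the 25755 genes of the tables: Trp53, its relatives Trp63 and Trp73, the p53 antagonists Mdm2 and Mdm4, and Trp53bp1. Their reads were followed in sorted dermal papilla (DP) cells of mouse hair follicles, in 24 RNA-seq libraries. At each of P20 (1st telogen), P24 (early anagen), P28 (mid anagen) and P60 (2nd telogen), 3 control and 3 double mutant (dM1/2) libraries were compared, to ask how loss of the histone deacetylases Hdac1 and Hdac2 in the DP changes its transcripts over the hair cycle. Per the study's methods, control mice had 1 copy of Cor-cre with several combinations of wild-type and floxed alleles, some of them with both copies of 1 of the 2 genes floxed. Which control library had which combination is not in the labels. The dM1/2 mice carried 1 copy of Cor-cre and were homozygous for both floxed genes (Cor-cre/+; Hdac1Flox/Flox; Hdac2Flox/Flox), so that Cre was present in both groups. Corin-Cre drives recombination in the DP after birth, the Cre line came from FVB mice and the floxed lines from C57BL/6J, and the cells were isolated by a YFP reporter. The labels call the 3 samples of a group biological replicates and number them from 1 to 3.

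Trp53 encodes p53, a transcription factor that is held at low levels in unstressed cells and that turns on genes of cell-cycle arrest, repair and apoptosis after DNA damage or other stress. Mdm2 is a ubiquitin ligase that marks p53 for degradation and is itself a direct p53 target, and Mdm4 (MdmX) binds the p53 activation domain and works with Mdm2. Much of this control acts on the protein, which RNA-seq does not measure. Trp63 is best known in the basal layer of stratified epithelia and Trp73 in multiciliated cells and neurons. Trp53bp1 (53BP1) is a chromatin-bound scaffold at DNA double-strand breaks that favours end joining over resection.

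All 6 genes lie on different chromosomes of GRCm38: Trp53 (ENSMUSG00000059552) on chromosome 11 from 69580359 to 69591873, Trp63 (ENSMUSG00000022510) on chromosome 16 from 25683763 to 25892102, Trp73 (ENSMUSG00000029026) on chromosome 4 from 154056253 to 154140208, Mdm2 (ENSMUSG00000020184) on chromosome 10 from 117688875 to 117710758, Mdm4 (ENSMUSG00000054387) on chromosome 1 from 132959484 to 133030561 and Trp53bp1 (ENSMUSG00000043909) on chromosome 2 from 121193281 to 121271407. Exons of Trp53bp1 share 2130 bases with Tubgcp4 on the opposite strand, and those of Trp73 share 280 bases with Trp73os. The setting of the counting for strand is not given in the sources used here, so reads in the shared bases cannot be assigned to one gene. Processed pseudogenes of Trp53 and of Mdm4 are annotated on other chromosomes and were not analysed here.

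Promoter windows are shown for Trp53 and Mdm4, whose reads differed between genotypes at P28, and for Mdm2, whose reads did not pass the test. Each runs from 250 bases before to 50 bases after a transcript start and was taken from RefSeq on GRCm38.p6, at chr11:69580109-69580408 (plus strand) for Trp53, at chr1:133025367-133025666 (minus strand) for Mdm4 and at chr10:117710709-117711008 (minus strand) for Mdm2. Of the 6 genes, 5 had a window in that set, and Trp63 had none. Capitals mark matches on either strand to 6 motifs: the GC box (spelled GGGCGG), the CCAAT box, the E-box (spelled CACGTG), the ETS motif (spelled CCGGAA), the E2F motif (spelled TTTCCCGC) and the p53 half-site consensus.
Trp53: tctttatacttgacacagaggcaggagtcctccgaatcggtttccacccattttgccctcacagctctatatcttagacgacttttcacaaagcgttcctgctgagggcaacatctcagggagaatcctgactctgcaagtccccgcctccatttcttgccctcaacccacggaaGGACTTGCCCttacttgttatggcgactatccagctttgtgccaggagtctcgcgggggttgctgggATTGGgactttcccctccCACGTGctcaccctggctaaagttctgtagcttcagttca
Mdm4: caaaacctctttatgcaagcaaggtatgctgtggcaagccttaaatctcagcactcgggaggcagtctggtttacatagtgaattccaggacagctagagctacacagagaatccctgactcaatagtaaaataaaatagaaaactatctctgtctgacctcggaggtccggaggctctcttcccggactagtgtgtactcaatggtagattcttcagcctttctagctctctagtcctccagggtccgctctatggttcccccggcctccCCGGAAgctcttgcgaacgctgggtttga
Mdm2: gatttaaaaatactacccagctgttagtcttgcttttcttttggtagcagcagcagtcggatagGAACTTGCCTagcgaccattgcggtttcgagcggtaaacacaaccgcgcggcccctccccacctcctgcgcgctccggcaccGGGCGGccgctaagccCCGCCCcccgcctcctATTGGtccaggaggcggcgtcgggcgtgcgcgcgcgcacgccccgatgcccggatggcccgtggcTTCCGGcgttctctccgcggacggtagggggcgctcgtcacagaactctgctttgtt
The Trp53 window held 1 E-box, 1 CCAAT box and 1 match to the p53 half-site, whereas the Mdm4 window shown held 1 ETS motif and no match to the other 5 motifs. A second Mdm4 window, at chr1:133030538-133030837 (minus strand), held none of the 6 motifs and is not shown. The Mdm2 window held 2 GC boxes, 1 CCAAT box, 1 ETS motif and 1 match to the p53 half-site. Among 32851 windows of the same length, 35.7% held a GC box, 37.4% a CCAAT box, 7.15% an E-box, 14.9% an ETS motif, 1.07% the E2F motif and 8.36% a p53 half-site. GC content was 52.7% for Trp53, 49.7% for Mdm4 and 64.7% for Mdm2. These matches describe the letters of the windows and not bound sites.

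Values are normalized reads, the read count of a gene divided by the size factor of its library. Reads on genes ranged from 8171944 to 13369732 per library in telogen (P20 and P60) and from 35469841 to 49331751 in anagen (P24 and P28). Every telogen library expressed Xist without Ddx3y, and every anagen library Ddx3y with at most 3.9 normalized reads of Xist, so that hair-cycle phase, sex and depth cannot be told apart. Hdac1 had 213.6, 529.0 and 104.7 normalized reads in the P28 controls and 190.2, 148.7 and 125.7 in dM1/2, so the library labelled P28 control 3 was below every P28 mutant, and the members' differences and the list counts at P28 are also given without it. Hdac1 was lower in every mutant at P24 (116.0 to 209.0 against 668.2 to 674.7, log2 difference -2.01, adjusted p = 0.00167, limma) and overlapped between genotypes at P60 (317.7 to 371.1 against 359.9 to 505.9). At P20, every mutant also lay below every control (216.0 to 369.6 against 375.0 to 511.3). That difference did not pass (log2 difference -0.72, adjusted p = 0.122, limma). Reads of Hdac2 were not lower in dM1/2 past the threshold at any age, with log2 differences between -0.01 and 0.27, and whether they came from recombined alleles was not tested. All 16 DP markers had reads in every group. Their summed level at P28 was 218215 to 590990 in controls and 174414 to 189732 in dM1/2, with 6 markers lower and 1 higher of 16 tested. Of all genes tested at P28, 15.6% were lower and 20.0% higher, the shares to set beside each marker count at that age. The part of the DP markers in the differences below was not tested. Of 9 matrix and hair lineage markers, the summed level at P28 was 253.6 to 737.2 in controls and 1121 to 1478 in dM1/2. This sum consisted mostly of Msx2 and Gata3, while Foxn1 was lower in dM1/2, and their part was not tested either. The hair keratins Krt35, Krt31, Krt25 and Krt71 had at most 12.2 normalized reads in any P28 library. At P28, 2 of 10 tested keratinocyte markers were higher in dM1/2. Only 2 of the 10 differences lay above 0, and the list's median log2 difference was -0.51. Of dermal sheath and muscle markers, 1 of 6 was lower, while 0 of 3 melanocyte, 0 of 4 endothelial and 0 of 5 immune markers passed the test (limma). Without the library labelled P28 control 3, 3 of 6 dermal sheath and muscle, 1 of 3 melanocyte, 1 of 4 endothelial and 1 of 9 keratinocyte markers were lower and 2 of 9 keratinocyte markers higher. In that fit, 6 of 16 DP markers were lower and 2 higher, 2 of 3 matrix and hair lineage markers were higher, and 0 of 5 immune markers passed. Of all genes, it called 5788, 3088 of them higher, against 5018 and 2820 with every P28 library. P28 control 2 also stood apart, with the lowest DP marker sum of the P28 controls (218215). Col1a1 made up 19.8% of its reads, against 9.74% in P28 control 1. Without P28 control 2, 11 of 16 DP markers were lower in dM1/2 and 1 was higher, beside 5156 of all genes called, 2819 of them higher (limma).

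Trp53 had the highest level of the 6 genes per length, and Trp73 was close to absent. Per kilobase of exon sequence, the means over 24 libraries were 268.7 normalized reads for Trp53, 149.4 for Mdm2, 97.4 for Mdm4, 86.3 for Trp53bp1, 11.97 for Trp63 and 0.42 for Trp73. The order was the same per kilobase of the longest transcript, with 331.9, 241.5, 202.8, 127.1, 18.7 and 0.46. Between 214 and 5673 reads per library lay behind each value of Trp53, Mdm2, Mdm4 and Trp53bp1, and between 18 and 280 behind each value of Trp63.

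**Figure D1:**
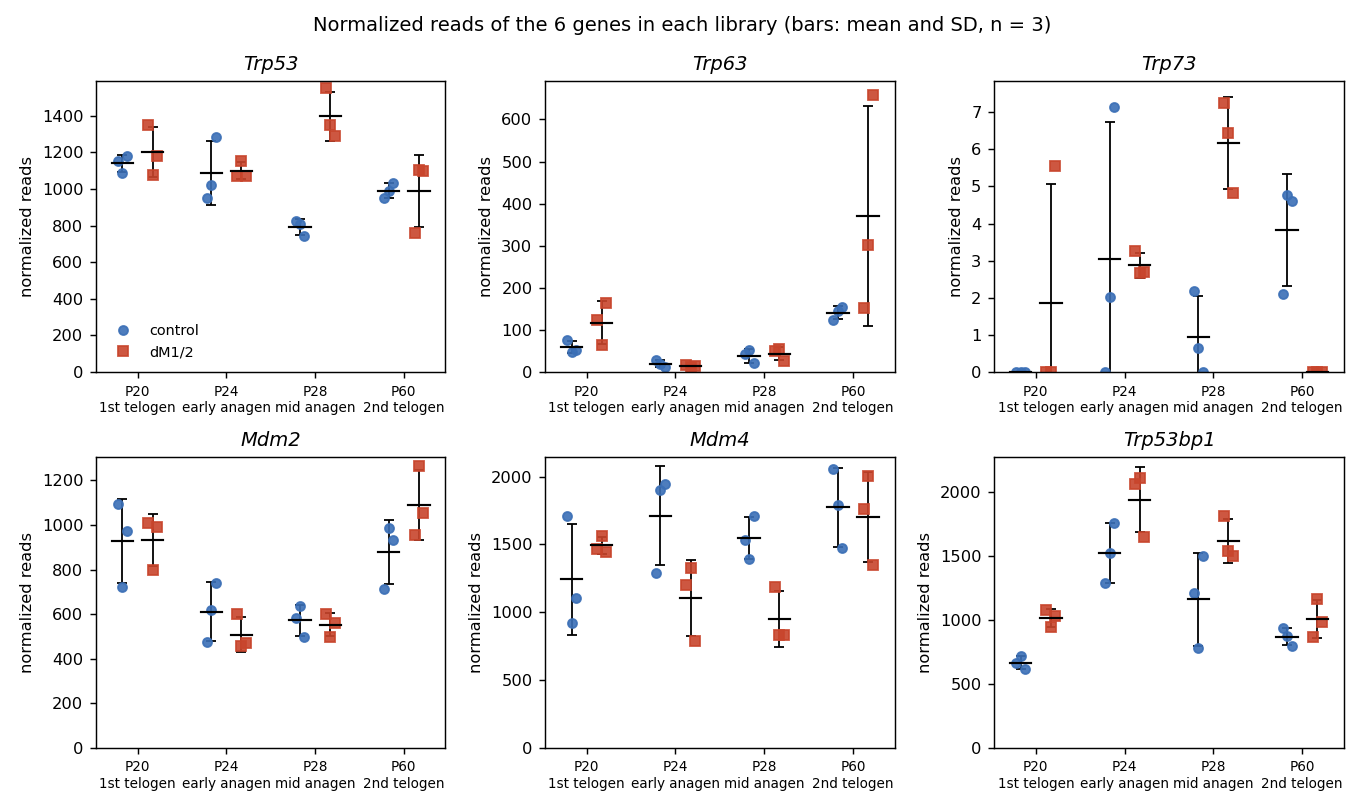
Normalized reads (y axis, from 0) of each of the 6 genes in each of the 24 libraries, by age on the x axis, with circles for control and squares for dM1/2. Bars give the mean and SD of 3 libraries. At P28 the 3 dM1/2 libraries lie between 1290.3 and 1549.2 for Trp53, above every control, and between 828.3 and 1186.8 for Mdm4, below every control.

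Trp53 was higher in dM1/2 than in controls at P28 and did not differ past the threshold at the other ages. At P28, the controls had 824.7, 810.8 and 741.8 normalized reads and the dM1/2 libraries had 1549.2, 1352.0 and 1290.3. The groups did not overlap. The P28 mutants had the highest group mean of Trp53 and the P28 controls the lowest, with 1397 ± 135 (SD, n = 3) against 792 ± 44.4 (SD, n = 3) in controls. The log2 difference was 0.81 (standard error 0.12, 95% interval 0.53 to 1.10, adjusted p = 0.00286, limma). Without the library labelled P28 control 3 it was 0.77 (adjusted p = 0.00381, limma), and over all 14 alternatives the adjusted p ranged from 1.64e-06 to 0.0163. An exact two-sided permutation test of 3 libraries against 3 cannot go below p = 0.1, the value it gave here.

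At P24, Trp53 had 949.4, 1024.2 and 1283.0 normalized reads in controls and 1071.8, 1152.4 and 1073.0 in dM1/2, and the dM1/2 values lay within the control range. At P20, the controls had 1151.7, 1087.6 and 1178.8 and the dM1/2 libraries 1348.4, 1077.8 and 1180.0. At P60, the controls had 950.9, 989.1 and 1032.9 and the dM1/2 libraries 759.9, 1106.3 and 1099.0. The log2 differences were 0.07 at P20 (95% interval -0.20 to 0.34), 0.03 at P24 (-0.29 to 0.35) and -0.02 at P60 (-0.44 to 0.39). In the order of group means, P28 dM1/2 was highest and P28 control lowest, and each pair of neighbours in that order overlapped in range.

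Mdm4 was lower in dM1/2 than in controls at P28. The controls had 1532.8, 1395.5 and 1707.3 normalized reads and the dM1/2 libraries 1186.8, 828.3 and 834.6, without overlap. The means were 1545 ± 156 and 950 ± 205 (SD, n = 3 each), and the log2 difference was -0.72 (standard error 0.17, 95% interval -1.13 to -0.30, adjusted p = 0.0186, limma). The call was kept without the library labelled P28 control 3 (log2 difference -0.64, adjusted p = 0.0271, limma). It was lost without P28 control 1 (adjusted p = 0.0632), P28 dM1/2 2 (adjusted p = 0.0756) or P28 dM1/2 3 (adjusted p = 0.0733), each with limma on 5 libraries and each with a log2 difference between -0.63 and -0.72. Over all 14 alternatives, the adjusted p of this difference ranged from 0.00402 to 0.0756.

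At P24, Mdm4 had 1290.3, 1899.8 and 1949.1 normalized reads in controls and 1198.7, 1326.1 and 790.3 in dM1/2. A single dM1/2 library lay above the lowest control. The log2 difference of -0.64 (95% interval -1.19 to -0.09) missed the threshold (adjusted p = 0.0849, limma), although DESeq2 called it (adjusted p = 0.0454). It was also called in a fit over all 24 libraries (adjusted p = 0.0483, limma) and without P24 control 1 (adjusted p = 0.0438, limma), and the adjusted p ranged from 0.0438 to 0.224 over 14 alternatives. In telogen the genotypes overlapped. At P20, the controls had 1706.1, 922.5 and 1101.4 normalized reads and the dM1/2 libraries 1468.9, 1562.5 and 1444.5, a log2 difference of 0.31 (adjusted p = 0.407, limma). Without P20 control 1, the highest of the P20 controls, this difference was 0.56 and passed (adjusted p = 0.0261, limma), with a range of 0.0261 to 0.801 over 14 alternatives. At P60, the controls had 2052.8, 1789.9 and 1475.6 and the dM1/2 libraries 1759.6, 2006.4 and 1346.2, with a log2 difference of -0.06.

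The ratio of Trp53 to Mdm4 within each library, which does not depend on the size factors, separated the genotypes in anagen only among the ages compared. At P28 it was 0.54, 0.58 and 0.43 in controls and 1.31, 1.63 and 1.55 in dM1/2, with means of 0.518 ± 0.0753 and 1.49 ± 0.169 (SD, n = 3 each). At P24, the controls had 0.74, 0.54 and 0.66 and the dM1/2 libraries 0.89, 0.87 and 1.36. The ranges overlapped at P20, with means of 0.975 ± 0.265 and 0.808 ± 0.114, and at P60, with 0.572 ± 0.120 and 0.60 ± 0.197 (SD, n = 3 each). Mdm4 relative to Mdm2 was 2.76 ± 0.634 in P28 controls and 1.71 ± 0.252 in P28 dM1/2 (SD, n = 3 each), again without overlap. These ratios were chosen after the values had been seen and have no test.

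**Figure D2:**
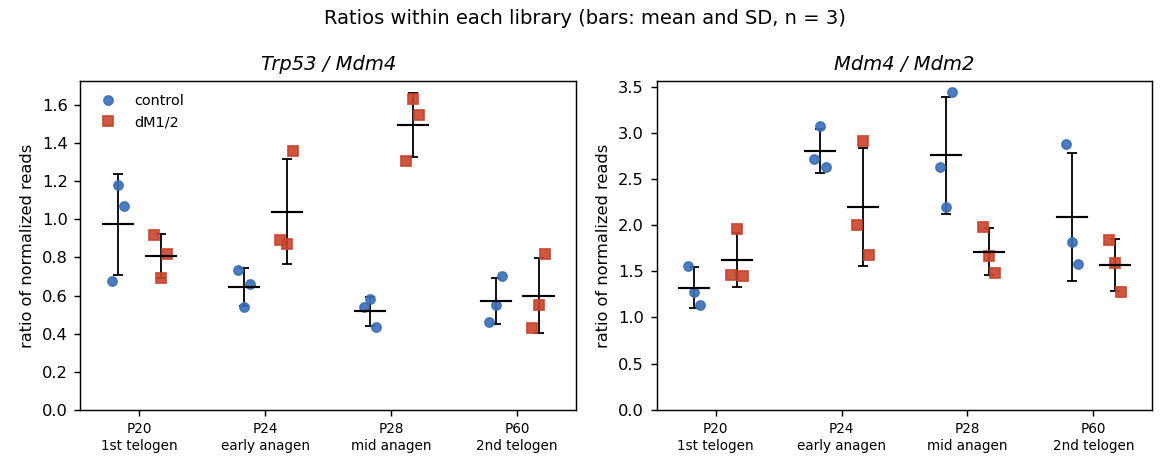
Ratio of normalized reads of Trp53 to Mdm4 (left) and of Mdm4 to Mdm2 (right) in each of the 24 libraries, by age, with circles for control, squares for dM1/2, and bars for the mean and SD of 3 libraries. At P28 the ratio of Trp53 to Mdm4 lies between 1.31 and 1.63 in dM1/2 and between 0.43 and 0.58 in controls.

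Mdm2 differed between genotypes past the threshold at none of the 4 ages. At P28, the controls had 582.9, 635.3 and 495.7 normalized reads and the dM1/2 libraries 598.3, 495.8 and 562.0. The mutant values lay within the control range, and the log2 difference was -0.05 (95% interval -0.39 to 0.29, adjusted p = 0.833, limma). It was -0.14 without the library labelled P28 control 3 (adjusted p = 0.463, limma). The interval thus leaves room for Mdm2 to be higher in dM1/2 by up to 0.29 on the log2 scale. At the same age, Trp53 was higher in dM1/2 than in controls by 0.81. At P24, the controls had 475.9, 617.5 and 740.7 and the dM1/2 libraries 598.6, 456.2 and 470.1, a log2 difference of -0.25 (95% interval -0.70 to 0.19). The log2 difference was 0.02 at P20 (95% interval -0.36 to 0.40) and 0.32 at P60 (95% interval -0.10 to 0.74). Over the alternatives run at each age, the lowest adjusted p of Mdm2 was 0.137, at P24.

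Mdm2 varied more with age than with genotype. Over both genotypes, the 12 anagen libraries ranged from 456.2 to 740.7 normalized reads (median 572.4) and the 12 telogen libraries from 713.7 to 1264.7 (median 979.5). Only the P24 control with 740.7 lay above the lowest telogen values.

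Trp53bp1 was above the controls in all 3 dM1/2 libraries at P20 and at P28, and neither difference passed the threshold with limma. At P20, the controls had 661.6, 714.2 and 613.8 normalized reads and the dM1/2 libraries 1073.3, 940.6 and 1026.5. The means were 663 ± 50.2 and 1013 ± 67.3 (SD, n = 3 each), a log2 difference of 0.61 (standard error 0.12, 95% interval 0.34 to 0.88, adjusted p = 0.0610, limma). This difference passed with DESeq2 (adjusted p = 0.00698) and without P20 control 1 (adjusted p = 0.0245, limma), and the adjusted p ranged from 0.00698 to 0.218 over 14 alternatives. At P28, the controls had 1209.6, 776.9 and 1496.8 and the dM1/2 libraries 1813.2, 1533.7 and 1499.0, so that the lowest mutant was just above the highest control. The log2 difference was 0.52 (95% interval -0.05 to 1.10, adjusted p = 0.139, limma). Without the library labelled P28 control 3, it was 0.73 and passed (adjusted p = 0.0235, limma), and it also passed in the fit over all 24 libraries (adjusted p = 0.0270, limma), with a range of 0.0235 to 0.308 over 14 alternatives. Without P28 control 2, the lowest of the P28 controls, the difference was 0.26 and did not pass (adjusted p = 0.243, limma).

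At P24, Trp53bp1 had 1289.1, 1518.2 and 1753.8 normalized reads in controls and 2061.9, 2109.5 and 1644.9 in dM1/2, with a log2 difference of 0.35 (95% interval -0.01 to 0.72, adjusted p = 0.139, limma). At P60, the controls had 932.0, 872.3 and 797.7 and the dM1/2 libraries 865.9, 1164.2 and 981.4, with a log2 difference of 0.20 (95% interval -0.17 to 0.57). The genotypes overlapped at both ages. Tubgcp4, which shares exon bases with Trp53bp1, had log2 differences of between -0.13 and 0.08 over the 4 ages, none past the threshold. Trp53bp1 was higher in anagen, with 776.9 to 2109.5 normalized reads (median 1526), than in telogen, with 613.8 to 1164.2 (median 902.1).

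Trp63 was low outside the P60 dM1/2 group and did not differ between genotypes past the threshold at any age. Its highest levels were in the P60 dM1/2 libraries, with 151.5, 301.7 and 659.0 normalized reads against 123.8, 145.4 and 154.5 in P60 controls. The mutants differed widely among themselves, and the lowest lay within the control range. The log2 difference was 1.14 (95% interval 0.06 to 2.22, adjusted p = 0.986, limma). It was 0.60 without P60 dM1/2 3 and 1.66 without P60 dM1/2 1. At P20, the controls had 75.0, 48.7 and 51.6 and the dM1/2 libraries 122.8, 64.2 and 164.6, a log2 difference of 0.92 (adjusted p = 0.203, limma). In anagen, Trp63 had between 11.4 and 54.9 normalized reads over both genotypes and both ages. The log2 difference was -0.46 at P24 (95% interval -1.44 to 0.53) and 0.20 at P28 (95% interval -0.87 to 1.28). The P28 value was -0.19 without the library labelled P28 control 3, and with each P28 library left out in turn it ranged from -0.19 to 0.52. The P24 value ranged from -0.75 (without P24 control 3) to -0.18 (without P24 control 1) and stayed below 0. Both 95% intervals hold 0, so neither direction is firm.

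Since Trp63 is known from basal keratinocytes, keratinocyte markers are given beside it. The sum of 18 markers was 940.7 to 1392 normalized reads in P60 controls and 790.2 to 1374 in P60 dM1/2, and 909.0 to 1270 and 868.6 to 1579 at P20. The basal keratin Krt5 had 93.4, 108.1 and 42.4 normalized reads in P60 dM1/2 1, 2 and 3, and Krt14 had 37.9, 45.3 and 9.41. In P60 dM1/2 3, the mutant with the most Trp63 (659.0), Krt5 and Krt14 were the lowest of the 3. The same library had the highest 18-marker sum of the 3 (1374), with the most Itgb4 (903.7 against 227.2 and 402.3), Lgals7 (103.55 against 15.1 and 60.3) and Sfn (58.8 against 20.2 and 45.3), so that the markers did not move together. The part of such cells in the Trp63 values was not tested. At P20, dM1/2 3 had the most of the 3 mutants of Trp63 (164.6), Krt5 (229.3) and Krt14 (90.6). It had the least Krt1 (7.40 against 22.7 and 15.5). Itgb4 (442.0 against 266.0 and 493.5), Lgals7 (264.5 against 202.4 and 292.1) and Sfn (37.0 against 47.8 and 22.1) lay between the other mutants. The markers thus did not move together at P20 either. In bulk libraries, fewer cells of a type and less RNA per cell cannot be told apart.

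Trp73 was near the detection limit. It had 0 reads in 10 of 24 libraries, 3 or fewer in 15 and at most 18, and it fell under the filter of a mean of 10 normalized reads, so it was not tested. A count of 0 allows up to 3 reads, a limit that covers counting error only. At P28, the dM1/2 libraries had 17, 15 and 12 reads (7.25, 6.43 and 4.82 normalized) and the controls 5, 1 and 0 (2.17, 0.64 and 0). At P24, the dM1/2 libraries had 9, 7 and 8 reads and the controls 0, 4 and 18. In telogen, at most 3 reads were counted in any library. With 280 exon bases shared with Trp73os, these few reads cannot be assigned to Trp73 alone.

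Across the members, 2 of 5 tested were called at P28, Trp53 higher and Mdm4 lower, where 35.5% of all genes tested were called. At P24, 0 of 5 members were called beside 26.6% of all genes, at P20 0 of 5 beside 0.433%, and at P60 0 of 5 beside 0% (525 of 14042 genes at an unadjusted p under 0.05 with limma, and 26 called with DESeq2). The members' share at P28 was thus close to that of the whole table.

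**Figure D3:**
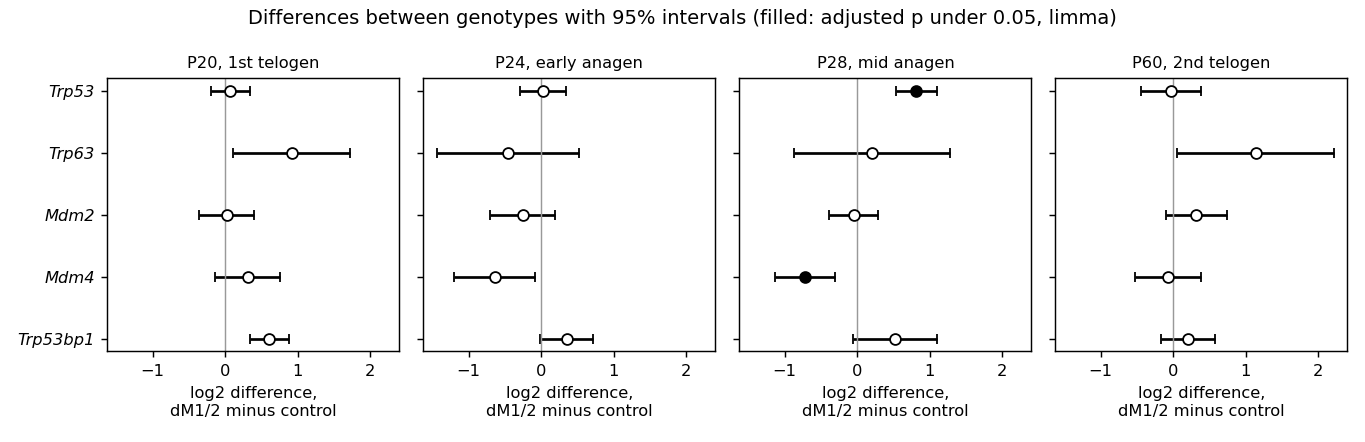
Log2 differences of normalized reads, dM1/2 minus control (x axis), for the 5 tested genes at each of the 4 ages, with 95% intervals from limma on 3 libraries per group. Filled points passed the threshold of an adjusted p under 0.05: Trp53 at 0.81 and Mdm4 at -0.72, both at P28.

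Whether the genotype difference itself changed with the phase was tested over all 24 libraries, as the mean of the P24 and P28 differences minus that of the P20 and P60 differences. For Mdm4, this contrast was -0.80 on the log2 scale (standard error 0.23, adjusted p = 0.0127, limma), and the adjusted p stayed between 0.00286 and 0.0268 over 31 alternatives. For Trp53 it was 0.40 (standard error 0.14, adjusted p = 0.0327, limma), and the call was lost when any of 8 single libraries was left out, with adjusted p-values between 0.0125 and 0.0639 over 31 alternatives. Trp63 had a contrast of -1.15 (adjusted p = 0.0683, limma), which passed with DESeq2 (adjusted p = 0.0151) and ranged from 0.0151 to 0.126. The contrast was -0.32 for Mdm2 (adjusted p = 0.209) and 0.03 for Trp53bp1 (adjusted p = 0.923, limma). Thus 2 of 5 members passed, beside 30.2% of all genes. Because anagen libraries were male and deeper, and telogen libraries female, the contrast compares these together with the phase.

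Between early and mid anagen, the genotype difference of Trp53 went from 0.03 to 0.81. The difference of these values, 0.79 on the log2 scale (95% interval 0.40 to 1.17), did not pass the threshold over all genes (adjusted p = 0.0726, limma) and passed with DESeq2 (adjusted p = 0.00880), with a range of 0.00880 to 0.193 over 19 alternatives. None of the 5 members was called in this contrast, beside 0.707% of all genes. The value was -0.08 for Mdm4 (95% interval -0.78 to 0.62), 0.21 for Mdm2 and 0.17 for Trp53bp1.

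Over the 4 ages, 4 of 5 members varied within controls and 4 of 5 within dM1/2, beside 49.0% and 59.9% of all genes (limma's F test over 12 libraries). Trp63 (adjusted p = 0.00135 in controls and 7.14e-05 in dM1/2), Trp53bp1 (0.00481 and 0.000177) and Mdm2 (0.0275 and 0.000126) varied in both genotypes. Trp53 passed in controls (adjusted p = 0.0170) and not in dM1/2 (adjusted p = 0.0560), and Mdm4 passed in dM1/2 (adjusted p = 0.0117) and not in controls (adjusted p = 0.187).

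Upstream regulators of p53 that passed the test in anagen were nearly all higher in dM1/2. At P28, 12 of 30 tested were higher and 1 was lower, beside 20.0% of all genes higher and 15.6% lower, and the list's median log2 difference was 0.14 (0.00 over all genes). The largest rise was that of Cdkn2a, from a mean of 4.198 to 28.3 normalized reads (log2 difference 2.55, adjusted p = 0.00659). Its control mean lay under the filter for testing, which the gene passed through the dM1/2 libraries. Arf, a product of Cdkn2a, sequesters Mdm2. Reads were counted per gene, so whether the Arf transcript rose was not tested. The checkpoint kinases Chek1 (2.32, adjusted p = 0.000959) and Chek2 (2.28, adjusted p = 0.000900) had the next largest rises. Chek1 rises in dividing cells as well as acting in the damage response. Ppm1d (Wip1), a phosphatase that counters p53 signalling and is a p53 target, rose by 1.04 (adjusted p = 0.00112). The acetyltransferase and p53 coactivator Crebbp was the 1 gene that fell, by 0.87 (adjusted p = 0.0113). The deubiquitinase Usp7 and the p53-binding protein Trp53bp2 had log2 differences of -0.17 and 0.07 and were not called (limma throughout). At P28, 12 regulators were higher and 1 lower without the library labelled P28 control 3, and without P28 dM1/2 1, 2 were lower. Of all genes, 5788 and 4126 were called in these fits, against 5018 in the main fit. At P24, 9 of 30 were higher and 0 lower, beside 14.8% and 11.8% of all genes.

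Direct p53 targets other than Mdm2 moved mostly upward where they passed. At P28, 17 of 35 were higher and 3 lower, beside 20.0% and 15.6% of all genes, with a list median of 0.85 on the log2 scale. The cell-cycle inhibitor Cdkn1a (p21) rose from 473.0 to 2156 normalized reads (log2 difference 2.45, adjusted p = 0.0143), Ccng1 from 1402 to 2559 (0.85, adjusted p = 0.00801) and the apoptosis effector Bax from 374.7 to 751.8 (0.98, adjusted p = 0.00469). The largest rises were Psrc1 (4.79, adjusted p = 0.00121), Gtse1 (4.00, adjusted p = 0.000658) and Ckap2 (3.36, adjusted p = 0.000832), which are also known as spindle and microtubule genes of dividing cells. The kinase Plk2 (-1.35, adjusted p = 0.00556), the adenylate kinase Ak1 (-0.83, adjusted p = 0.0405) and the ribonucleotide reductase subunit Rrm2b (-0.64, adjusted p = 0.0153) fell. The desmosomal gene Perp had a log2 difference of -1.16 at 18.5 and 6.54 normalized reads and was not called (adjusted p = 0.175, limma throughout).

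At P24, 14 of 35 targets were higher and 4 lower (Plk2, Ak1, Ddit4l and Polk, the last pair named after their values were seen), beside 14.8% and 11.8% of all genes, with a median of 0.60. Cdkn1a (0.68, adjusted p = 0.130) and Ccng1 (0.51, adjusted p = 0.121) missed the threshold there, whereas Bax passed (0.55, adjusted p = 0.0402, limma). No target was called at P20 or P60, beside 0.433% and 0% of all genes. Without the library labelled P28 control 3, 19 targets were higher and 5 lower at P28. Of all genes, 5788 were called in that fit, 3088 of them higher, against 5018 and 2820 in the main fit. Over each P28 library left out in turn, 14 to 19 targets were higher and 1 to 5 lower, beside 3043 to 5788 of all genes called. The 1 came without P28 control 1 or P28 dM1/2 2.

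Partners of 53BP1 in break repair, a list that also holds genes that oppose it, moved in both directions. At P28, 7 of 19 were higher (36.8%) and 3 lower (15.8%), beside 20.0% and 15.6% of all genes, so that the share lower was close to that of the whole table. The median log2 difference was 0.24. Brca1 (3.55, adjusted p = 0.000203) and its partner Bard1 (2.51, adjusted p = 0.00122), which oppose 53BP1 and promote homologous recombination in dividing cells, and the histone variant H2afx (1.92, adjusted p = 0.000323) had the largest rises. The shieldin subunits Shld1 (-1.33, adjusted p = 0.0169) and Shld2 (-1.19, adjusted p = 0.00828), which act downstream of 53BP1 to protect ends, and the methyltransferase Kmt5b (-1.01, adjusted p = 0.00247), which helps write the histone mark that 53BP1 binds, fell. Rif1, the direct effector of 53BP1, had a log2 difference of 0.25 and was not called (adjusted p = 0.143, limma throughout). At P24, 5 of 19 were higher (H2afx, Bard1, Brca1, Usp28 and Kmt5a) and Shld1, Shld2 and Kmt5b lower, with Usp28 and Kmt5a named after their values were seen. These shares, 26.3% higher and 15.8% lower, stood beside 14.8% and 11.8% of all genes. Without the library labelled P28 control 3, 6 partners were higher and 3 lower at P28, beside 5788 of all genes called. With each P28 library left out in turn, 5 to 7 partners were higher and 2 to 3 lower, beside 3043 to 5788 of all genes called. None of the regulators or partners was called at P20 or P60, beside 0.433% and 0% of all genes.

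**Figure D4:**
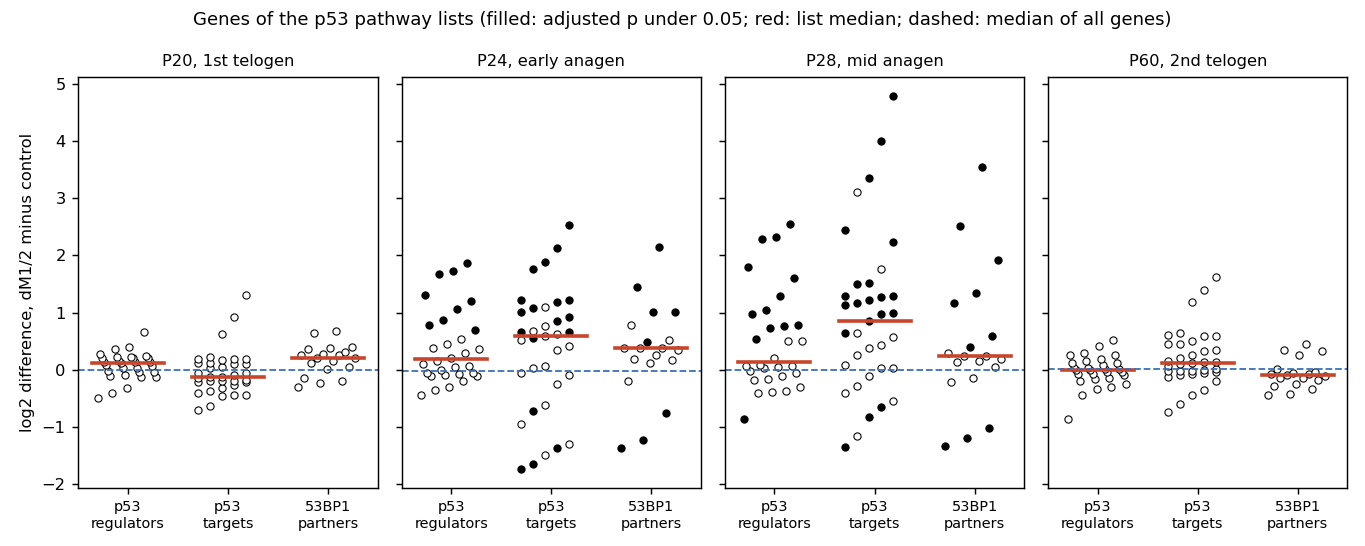
Log2 differences of normalized reads, dM1/2 minus control (y axis), for each tested gene of 3 lists at the 4 ages: upstream p53 regulators, direct p53 targets and 53BP1 partners in break repair. The last list also holds Brca1 and Bard1, which oppose 53BP1. Filled points passed an adjusted p under 0.05 (limma), red lines are list medians and dashed lines the median of all genes. At P28 the median of the targets is 0.85 and filled points reach 4.79, and no point is filled at P20 or P60. At those ages, 0.433% and 0% of all genes passed.

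The genes whose levels most resembled each member over the 24 libraries, by Pearson r of log2 values among 13334 genes, were Epha2 (0.89), Hs3st6 (0.87) and Tiam2 (0.86) for Trp53. Epha2, an ephrin receptor, had 210.2 normalized reads in P28 controls and 891.3 in P28 dM1/2. For Mdm4 they were Ino80d (0.90), Ncor1 (0.89) and Atp9b (0.89), and for Mdm2 they were Tsc22d2 (0.97), Clk3 (0.94) and Nfkb1 (0.94). For Trp53bp1 they were Gprasp1 (0.96), Klc2 (0.95) and Mgat5 (0.95), and for Trp63 they were Il17rd (0.93), Pcgf5 (0.91) and Mamdc2 (0.90). Between members, r was highest for Mdm2 with Trp63 (0.79) and lowest for Mdm2 with Trp53bp1 (-0.67), and it was -0.38 for Trp53 with Mdm4. The 24 points share age, sex and depth, so these values are descriptions.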

How the data were processed

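RNA of sorted DP cells was sequenced by the authors after ribosomal depletion, with directional libraries and single-end reads. Per the labels and the study's methods, reads were trimmed with Trimmomatic, aligned to mm10 with Tophat 2, counted per gene with HTSeq on Ensembl GRCm38.p4 and normalized with DESeq2. The deposited signal is reads divided by the library's size factor, and 100% of values above 0 gave whole reads within 0.1 read. Columns of fold changes and p-values from the authors' own comparisons were not used.

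The main test was limma 3.58.1 (R 4.3.3) with a trend on log2(normalized reads + 1), for genes whose mean over the fitted libraries reached 10, two-sided, Benjamini-Hochberg over all genes tested, at 0.05. Fold changes on this scale understate those of low genes. edgeR 4.0.16 and DESeq2 1.42.0 were run on the recovered reads as alternatives, with another pseudocount (10), other filters, a replicate block, 1 fit over 24 libraries, and single libraries left out. List counts without single P28 libraries and the within-library ratios were added after seeing the data. The fits were tested on simulated counts.

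The 6 members and the lists were chosen with earlier results of these data known. Genes named are the members, up to 3 largest rises and 3 largest falls of each list at P28 among those called, Cdkn1a, Cdkn2a, Ccng1, Bax, Perp, Ppm1d, Usp7, Rif1 and Trp53bp2, and the 3 genes most correlated with each member that passed a mean of 10. Genes were matched by identifier to GENCODE M21 (GRCm38). The list genes Shld1, Shld2 and Kmt5b have older symbols in the tables, and Shld3 was not matched. Cell type marker lists were read as summed levels and counts. The p-values measure the spread between libraries, 3 per group at each age, with variances that limma moderates over all genes. The contrasts between ages and the F tests used more libraries.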

Additional observations from a re-analysis of the deposited data

Results flagged for a closer look

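The difference between dM1/2 and control in anagen differed from that in telogen for Mdm4 and for Trp53, by a contrast over all 24 libraries. For Mdm4 the contrast was -0.80 on the log2 scale (adjusted p = 0.0127, limma), and Mdm4 was lower in dM1/2 in 3 of 3 libraries at P28. For Trp53 it was 0.40 (adjusted p = 0.0327, limma), and Trp53 was higher in dM1/2 in 3 of 3 libraries at P28. At P24, the other anagen age, the difference of Trp53 was 0.03, with the mutants within the control range. The call of this contrast was lost when any of 8 libraries was left out. Anagen libraries were male and deeper, and sex and depth cannot be told apart from the phase.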

How the results depend on the processing

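Of 530 values of members under the alternatives, 501 kept their side of the threshold, 11 fell below it, 18 rose past it and 0 turned a call to the opposite direction. The median log2 difference of all genes was at most 0.06 in size under every setting. The numbers of replicates were shared between groups without a stated pairing, and deviations of same-numbered libraries correlated between -0.39 and 0.30, not above 0.1 for every number at any age. The replicate block therefore enters the ranges above only as an alternative, and its calls are named only here. It changed the genes called to 439 at P20, 2366 at P24, 6 at P60 and 0 for P28 minus P24, and it called Trp53bp1 at P20 (0.61, adjusted p = 0.0402, limma) and Trp63 in anagen minus telogen (-1.15, adjusted p = 0.0311, limma).

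DESeq2 called 668 genes at P20, 26 at P60 and 595 for P28 minus P24, with Trp53bp1 at P20 (0.62), Mdm4 at P24 (-0.64), Trp53 for P28 minus P24 (0.78) and Trp63 in anagen minus telogen (-1.39). edgeR called the last with TMM (-1.35) and with DESeq2 size factors (-1.38). The fit over 24 libraries called 23 genes at P20 and 19 at P60, with Mdm4 at P24 (-0.64) and Trp53bp1 at P28 (0.52). A pseudocount of 10 called 1 gene at P60 and 151 for P28 minus P24, and at least 10 reads in every library 66 for the latter. The main fits called 60, 3735, 5018, 0 and 100 genes at P20, P24, P28, P60 and for P28 minus P24. edgeR's F test with TMM called Trp53 over the ages in dM1/2 (adjusted p = 0.0458).

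With single libraries left out, genes called were 0 to 1530 at P20, 2057 to 4012 at P24, 3043 to 5788 at P28, 0 to 2 at P60 and 8 to 167 for P28 minus P24. Log2 differences of Mdm4 were 0.12 to 0.56 at P20, -0.83 to -0.42 at P24 and -0.89 to -0.63 at P28. Those of Trp53bp1 were 0.56 to 0.67 at P20 and 0.26 to 0.73 at P28. Anagen minus telogen was 0.31 to 0.46 for Trp53, lost without P20 control 3, P20 dM1/2 2, P24 control 1, P24 control 2, P24 dM1/2 2, P28 control 3, P28 dM1/2 1 or P60 control 3, and -1.41 to -0.88 for Trp63. The cause of these shifts was not tested. Depth limits Trp73 and, in telogen, Trp63.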
